A study of Rattus norvegicus with 3 samples.

Results

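The 10 immediate early genes Fos, Fosb, Jun, Junb, Jund, Egr1, Ier2, Atf3, Nr4a1 and Dusp1 were taken by their gene symbols from a table of 18425 rat genes, and all 10 were found in it. The table held retinal RNA from Sprague Dawley rat pups of WT genotype at P4, in 3 libraries with 1 library per condition. At P1, 1 µl of citrate buffer at pH 4.5 (Buffer), of saline (Saline) or of a solution with 10 µg streptozotocin (STZ) had been injected into the vitreous. STZ, a glucosamine-linked nitrosourea that alkylates DNA, was itself dissolved in citrate buffer, so Buffer is the control for its vehicle and Saline is a further injected control. All 3 groups had received an injection. In the paper's injections at P1, STZ went into right eyes and citrate buffer into the left eyes of the same animals. Whether the Buffer and STZ libraries shared animals was not given. How many animals or retinas went into a library was not given in the sources used here, and no library has a replicate, so no difference below has a replicate check and no p-value is given.

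Immediate early genes are switched on within minutes of a stimulus, from factors already present in the cell, and their messages are usually short-lived. Growth factors, neuronal activity and stress reach them through kinase cascades that act on serum response factor with its partners and on CREB. Most encode transcription factors. Fos and Fosb pair with Jun, Junb or Jund to form AP-1, Egr1 and Nr4a1 bind DNA as a zinc finger protein and an orphan nuclear receptor, Atf3 is a stress-induced factor of the ATF/CREB family, Ier2 is a nuclear regulator, and Dusp1 is a phosphatase that turns off MAP kinases.

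Egr1 and Fos were higher in the STZ library than in both control libraries, and none of the other 8 genes passed the rule of size against either control. The rule was that of the study's methods, a ratio of (FPKM + 1) whose log2 is above 0.623 or below -0.621, where FPKM is a level corrected for transcript length and library size (fragments per kilobase and mapped reads), and the added 1 damps the folds of genes at low levels. No immediate early gene was past the lower threshold. Among all genes, 2.25% were past the upper threshold and 1.04% past the lower one for STZ against Buffer, and 2.04% and 1.75% for STZ against Saline. Against both controls at once, 1.39% of all genes were past the upper threshold and 0.630% past the lower one, beside 2 of 10 immediate early genes past the upper one. Saline against Buffer put 1.00% of all genes above and 0.429% below, and none of the 10.

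Beside each fold stands a count ratio, the share of a library's reads that the gene took, divided by that share in the other library. Its 95% interval was computed by the exact Clopper-Pearson method. The library totals were alike, between 21977843 and 22031249 estimated reads. Sequencing reads are not independent molecules, so these intervals cover counting error only and compare the libraries, not the conditions. The comparisons share libraries: STZ is in both of its comparisons and Buffer is also in the comparison of the controls. In these bulk samples fewer cells of a type and less RNA per cell cannot be told apart.

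Egr1, the zinc finger factor, had 1.12 FPKM with Buffer, 1.34 with Saline and 5.88 with STZ. These values rested on 32, 38 and 168 reads. The STZ library stood far above the controls, which lay close together. Its folds were 3.25 over Buffer and 2.94 over Saline, ranks 46 and 42 of 18425 genes from the highest fold. The count ratio was 5.24 (95% interval 3.57 to 7.91) against Buffer and 4.41 (3.09 to 6.45) against Saline. Between the controls the fold was 1.1 and the count ratio 1.19 (0.723 to 1.96), an interval that holds 1. In the Buffer library Egr1 was at percentile 31.4 of all genes by FPKM, and in the STZ library at percentile 46.1, so its level was modest in each.

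Fos, the partner that AP-1 gains when cells are stimulated, had 2.81 FPKM with Buffer, 2.62 with Saline and 5.71 with STZ. Its reads were 84, 78 and 171. As for Egr1, the controls were close and the STZ library was high. Its folds were 1.76 over Buffer and 1.85 over Saline. The count ratios were 2.03 (1.56 to 2.67) and 2.19 (1.66 to 2.9). Saline against Buffer gave 0.929 (0.674 to 1.28). The difference of Fos was smaller than that of Egr1 on either scale, with fold ranks of 249 and 177.

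**Figure D1:**
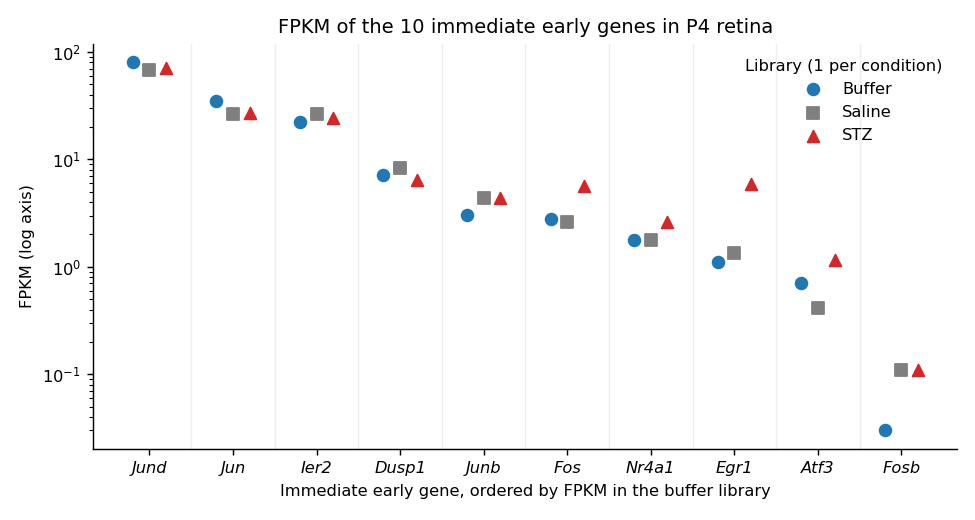
FPKM on a log axis of each of the 10 immediate early genes in the Buffer, Saline and STZ libraries, 1 library per condition and so without error bars. The STZ library is highest for Egr1, with 5.88 against 1.12 and 1.34 FPKM, and for Fos, with 5.71 against 2.81 and 2.62, while Buffer is highest for Jun and Jund.

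Nr4a1, the orphan nuclear receptor, had 1.76 FPKM with Buffer, 1.78 with Saline and 2.62 with STZ, from 109, 107 and 178 reads. The controls were nearly equal and the STZ library lay above them. The folds of 1.31 and 1.30 did not reach the threshold. The count ratios were 1.63 (1.28 to 2.09) and 1.66 (1.3 to 2.13), larger than the folds, which the added 1 damps. With 0.1 added in place of 1, the folds were 1.46 over Buffer and 1.45 over Saline. For Nr4a1 alone of the 8 immediate early genes with a mean of at least 50 reads, the FPKM given per 1000 reads differed between libraries by over 1.1 times, at 16.1 with Buffer, 16.6 with Saline and 14.7 with STZ, after setting the totals equal. Such a difference was found in 3.34% of the 12797 genes at that mean with a read in each library.

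Atf3, the stress factor, had 0.71 FPKM with Buffer, 0.41 with Saline and 1.17 with STZ. Its estimated reads were 25.97, 15 and 42.73, which are not all whole, so its intervals leave out the error of the estimation. STZ was the highest library, but here the controls also stood apart. The fold against Saline, 1.539 or 0.622 on the log2 scale, fell just short of the threshold of 0.623, and that against Buffer was 1.27. The count ratio was 2.86 (1.56 to 5.54) against Saline. Against Buffer it was 1.65 (0.992 to 2.8), an interval that holds 1. Which control was used thus decided whether counting error covered the difference of Atf3.

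**Figure D2:**
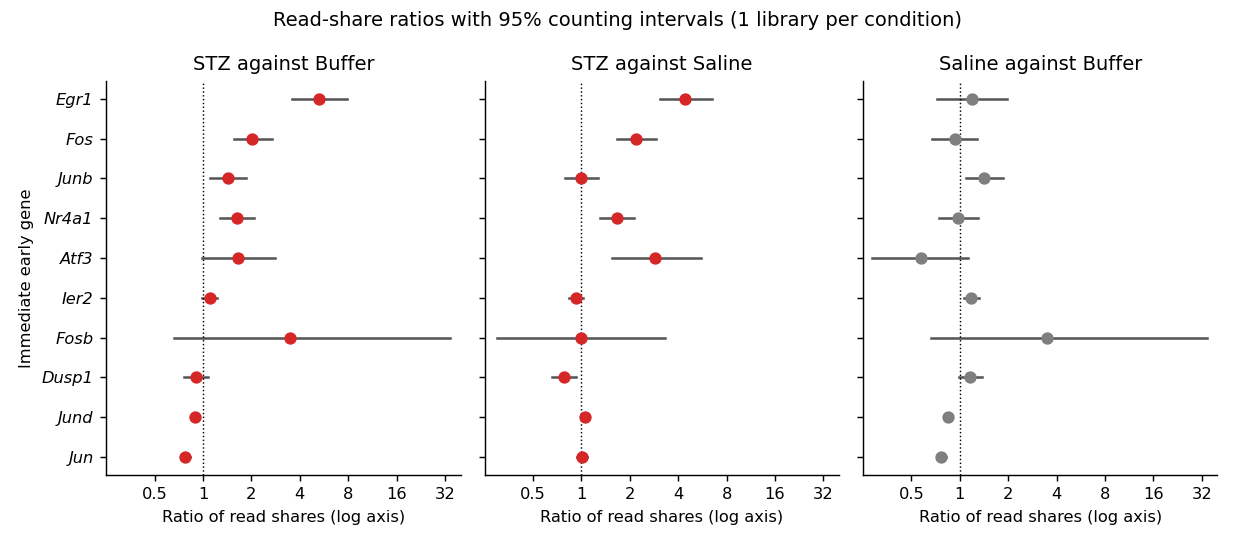
Ratio of count shares of each immediate early gene on a log axis, in the 3 comparisons of the libraries, with bars for the 95% interval of counting error. The interval lies above 1 against both controls for Egr1, Fos and Nr4a1 only, and that of Fosb spans 1 in each comparison.

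Junb, an AP-1 subunit, had 3.04 FPKM with Buffer, 4.34 with Saline and 4.35 with STZ. Its reads were 104, 148 and 149. Here the Buffer library was low and Saline and STZ were nearly equal. The count ratio was 1.43 (1.11 to 1.86) for STZ against Buffer and 1.42 (1.1 to 1.85) for Saline against Buffer, but 1.0 (0.795 to 1.27) for STZ against Saline.

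Jun and Jund, the AP-1 subunits with the highest levels, had the Buffer library apart in the opposite direction. Jun had 34.69 FPKM with Buffer, 26.67 with Saline and 26.84 with STZ, from 2184, 1677 and 1693 reads. Its count ratio was 0.774 (0.726 to 0.825) for STZ against Buffer and 0.768 (0.721 to 0.819) for Saline against Buffer, but 1.01 (0.941 to 1.08) for STZ against Saline. The STZ value of Jun was thus that of one control and not of the other.

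Jund had 80.07 FPKM with Buffer, 67.81 with Saline and 71.37 with STZ, from 2551, 2157 and 2279 reads. Its count ratios were 0.892 (0.842 to 0.944) for STZ against Buffer and 0.846 (0.799 to 0.896) for Saline against Buffer. STZ against Saline gave 1.05 (0.993 to 1.12). STZ lay between the controls. Jund had the highest FPKM of the 10 genes in each library, at percentile 93.9 of all genes in Buffer.

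Ier2, the nuclear regulator, had 22.14 FPKM with Buffer, 26.23 with Saline and 24.3 with STZ, and the STZ library again lay between the controls. Its reads were 630, 745 and 693. Its count ratio was 1.1 (0.984 to 1.23) for STZ against Buffer, 0.928 (0.836 to 1.03) for STZ against Saline and 1.18 (1.06 to 1.32) for Saline against Buffer.

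Dusp1, the MAP kinase phosphatase, was the only immediate early gene with its lowest value in STZ. It had 7.11 FPKM with Buffer, 8.27 with Saline and 6.45 with STZ, from 265, 308 and 241 reads. Its folds were 0.919 against Buffer and 0.804 against Saline, neither past the lower threshold. The count ratio was 0.781 (0.657 to 0.927) against Saline, and against Buffer 0.908 (0.759 to 1.08).

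Fosb, the further Fos-type partner in AP-1, was near the detection limit. It had 2 reads with Buffer, 7 with Saline and 7 with STZ, or 0.03, 0.11 and 0.11 FPKM. Its mean of 5.33 reads was under the minimum of 10 used for medians. The count ratio was 3.49 (0.665 to 34.5) for STZ against Buffer and 0.998 (0.299 to 3.33) for STZ against Saline, so a difference was not detectable at this depth.

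Counted over the genes, the STZ value was above both controls for 5 of the 9 immediate early genes with a mean of at least 10 reads, Egr1, Fos, Nr4a1, Atf3 and, by 4.35 against 4.34 FPKM, an order that TMM and DESeq2 scaling turned round, Junb, beside 44.1% of all such genes. It was below both for 1, Dusp1, beside 35.2%. The first of these counts is near its background. With the interval of counting error in place of the fold rule, 4 of the 10 were above 1 for STZ against Buffer (Egr1, Fos, Nr4a1 and Junb), where 22.2% of all genes were, and Jun and Jund were below 1, where 15.8% were. In STZ against Saline, 4 were above 1 (Egr1, Fos, Nr4a1 and Atf3) beside 22.5% of all genes, and Dusp1 was below 1 beside 19.8%. In Saline against Buffer, Junb and Ier2 were above 1 beside 13.6%, and Jun and Jund below 1 beside 10.0%. The median log2 fold of the 9 genes was 0.34 for STZ against Buffer, 0.07 for STZ against Saline and 0.01 for Saline against Buffer. Over all 14885 genes with at least 10 reads on average the medians were 0.028, 0.013 and 0.016.

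For 4 immediate early genes the STZ value lay outside both controls by more than the controls differed from each other, as it did for 50.4% of all genes with a mean of at least 10 reads. The log2 distance from STZ to the nearer control was 1.56 for Egr1, where the controls differed by 0.14. It was 0.82 for Fos with a gap of 0.07, 0.38 for Nr4a1 with a gap of 0.01 and 0.34 for Atf3 with a gap of 0.28. The margin of Atf3 was thus slight. For Jun and Junb the controls differed by 0.37 and 0.40, while STZ was within 0.01 of Saline for each.

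**Figure D3:**
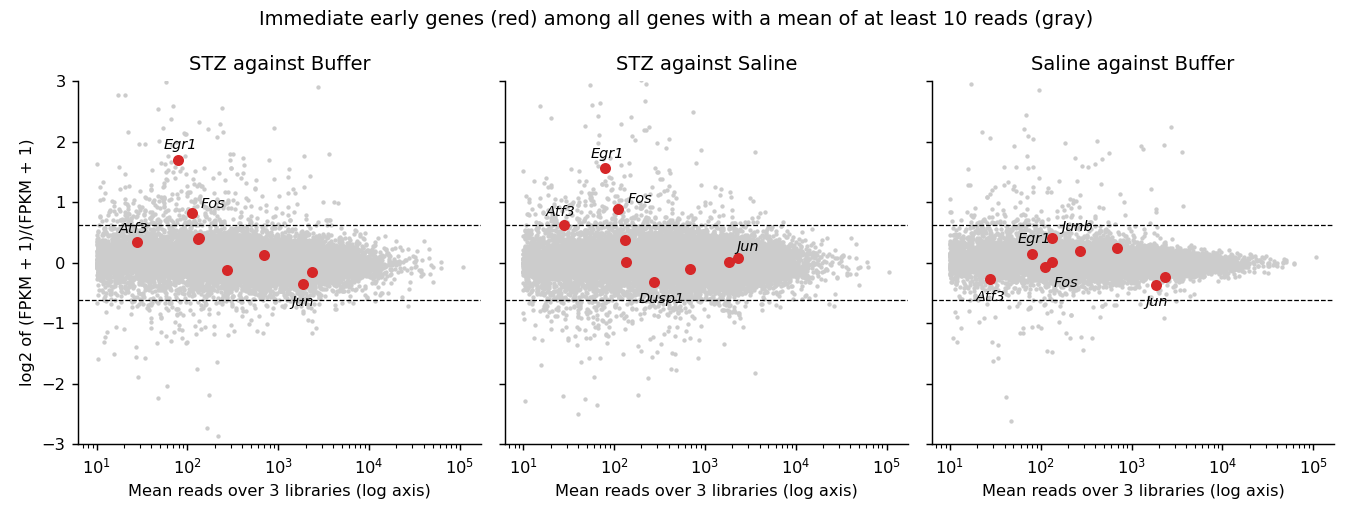
Log2 of the ratio of (FPKM + 1) against the mean reads per gene on a log axis, for all genes with a mean of at least 10 reads in gray and 9 immediate early genes in red, with the thresholds dashed. Egr1 and Fos lie above the upper line in both STZ panels and near 0 for Saline against Buffer. Genes past 3 on the log2 axis in either direction, 16, 16 and 8 in the panels, are not drawn.

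Promoter sequences were read from NCBI RefSeq's table for the build GRCr8 as the 250 bases before the start of the gene, and 7 of the 10 genes matched. Fos, Jun and Atf3 had no entry. Of the windows with sites through which serum response factor and CREB can act, 4 are shown, chosen in part by the values above. They are Egr1, the gene with the largest difference, Nr4a1 with the most CRE cores, and Ier2 and Dusp1, which hold a full CRE. The counting intervals of Ier2 and Dusp1 for STZ against Buffer hold 1. That of Dusp1 against Saline (0.657 to 0.927) lies below 1. Jund also holds a full CRE, and its window is not shown. The 4 windows lie at chr18:26736828-26737077 on the plus strand (Egr1), chr7:134259888-134260137 plus (Nr4a1), chr19:40399123-40399372 plus (Ier2) and chr10:17184603-17184852 plus (Dusp1). The capitals mark CArG boxes, full CREs and CRE cores on either strand, and positions count back from -1, the base before the start.
Egr1: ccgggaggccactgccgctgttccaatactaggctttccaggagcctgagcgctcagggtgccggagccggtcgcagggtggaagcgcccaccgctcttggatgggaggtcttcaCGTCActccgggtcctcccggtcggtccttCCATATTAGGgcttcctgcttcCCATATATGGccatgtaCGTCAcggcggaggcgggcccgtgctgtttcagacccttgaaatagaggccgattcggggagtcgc
Nr4a1: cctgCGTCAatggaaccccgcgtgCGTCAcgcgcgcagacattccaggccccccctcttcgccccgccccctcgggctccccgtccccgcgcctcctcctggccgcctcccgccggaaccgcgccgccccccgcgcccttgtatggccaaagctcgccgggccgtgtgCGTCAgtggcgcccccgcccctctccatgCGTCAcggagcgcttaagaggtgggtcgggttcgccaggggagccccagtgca
Ier2: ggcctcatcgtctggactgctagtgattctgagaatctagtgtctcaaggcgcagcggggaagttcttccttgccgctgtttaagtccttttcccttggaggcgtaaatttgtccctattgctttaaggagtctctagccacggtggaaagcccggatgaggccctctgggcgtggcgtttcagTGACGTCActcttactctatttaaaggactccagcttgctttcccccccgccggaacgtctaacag
Dusp1: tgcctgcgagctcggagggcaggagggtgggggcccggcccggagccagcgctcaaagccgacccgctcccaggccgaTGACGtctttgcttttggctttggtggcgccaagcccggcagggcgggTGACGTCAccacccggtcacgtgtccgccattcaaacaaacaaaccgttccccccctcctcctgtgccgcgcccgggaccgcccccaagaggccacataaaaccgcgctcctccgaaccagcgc

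Egr1 was the only one of the 7 with an exact match to the CArG box, the site of serum response factor. The pattern searched was CC and GG around a run of A and T only, and near matches were not counted. It held 2, at -105 to -96 (CCATATTAGG) and at -83 to -74 (CCATATATGG), and 2 CRE cores at -135 and -66. A CArG box occurred in 1.5% of 33360 distinct promoter windows of the same length. The CRE, TGACGTCA, the site of CREB, was in the windows of Ier2 (-66 to -59), Dusp1 (-124 to -117) and Jund (-221 to -214), and in 1.59% of all windows. The CRE core TGACG, which every CRE contains, was in 6 of 7 windows and in 18.2% of all, with 4 matches for Nr4a1. The Egr site GCGGGGGCG or GCGTGGGCG was found for Nr4a1 at -73 and Jund at -76, beside 2.86% of all windows. The AP-1 site TGAGTCA or TGACTCA was in none of the 7 and in 4.05% of all. The TATA box letters TATAAA were in 2 windows and in 12.9% of all. The match of Junb was TATAAA at -49, and that of Fosb was the reverse complement TTTATA at -180. Both strands were searched. A match describes the letters and not bound sites.

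**Figure D4:**
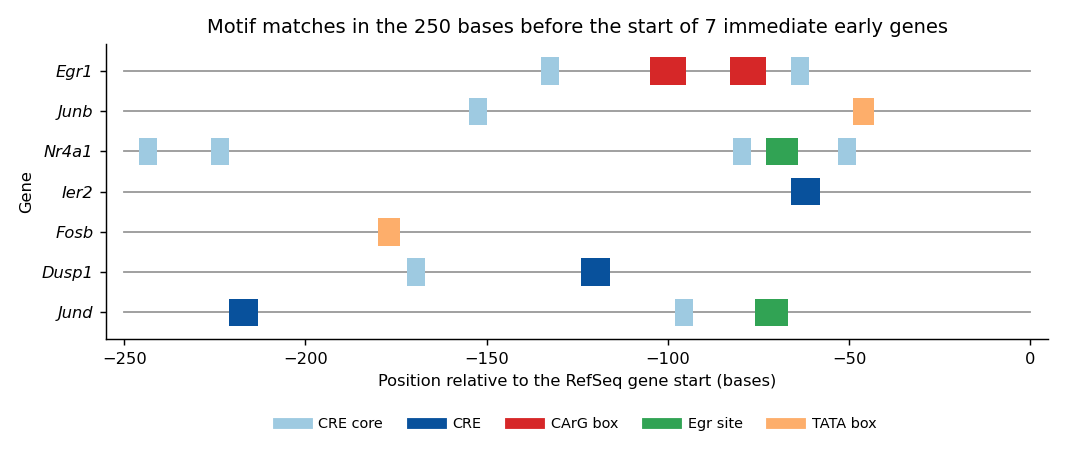
Positions of motif matches in the 250 bases before the start of the 7 immediate early genes with a RefSeq window, in bases from the start. Egr1 alone has exact CArG box matches, at -105 and -83, and Ier2, Dusp1 and Jund have a full CRE.

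The pathway around these genes was described through 9 further lists with 107 genes in the table. In STZ against Buffer, 5 of the 107 passed the upper threshold (Nab2, Sgk1, Plk2, Gadd45b and Sesn2) and 1 the lower one (Dusp16), shares beside the 2.25% and 1.04% of all genes. In STZ against Saline, 2 passed the upper threshold (Nab2 and Sgk1) and none the lower one, beside 2.04% and 1.75% of all genes. For Saline against Buffer none passed, beside 1.00% and 0.429%. Nab2 and Sgk1 were also the 2 of 107 past the upper threshold against both controls, beside 1.39% of all genes. The count of 2 is near these shares. Of the folds, 59 were above 1 and 46 below for STZ against Buffer, 51 and 55 for STZ against Saline, and 72 and 33 for Saline against Buffer, so the split was most uneven between the controls. Over all 18425 genes the same counts were 9939 and 7662, 9195 and 8533, and 9742 and 7828.

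Nab2, a corepressor that binds Egr proteins, was higher in STZ than in both controls. It had 2.72 FPKM with Buffer, 3.20 with Saline and 5.96 with STZ, from 194, 225 and 423 reads. Its folds were 1.87 and 1.66. The count ratios were 2.18 (1.83 to 2.59) against Buffer and 1.88 (1.59 to 2.21) against Saline. Nab1, its relative, had 731, 790 and 817 reads and a fold of 1.14 against Buffer. Egr2 had 17, 14 and 31 reads and Egr3 had 1, 2 and 16. These low-count Egr genes were named after their values were seen, and their folds against Buffer of 1.20 and 1.12, damped by the added 1, did not pass. The count ratio of Egr2 was 1.82 (0.977 to 3.51) against Buffer and 2.21 (1.14 to 4.49) against Saline. That of Egr3, at the floor in both controls, was 16 (2.48 to 670) and 7.98 (1.88 to 71.5). Egr4, the further gene of this list, was not analysed here.

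Sgk1, a kinase induced by serum and glucocorticoids, was the other pathway gene past both controls. It had 1.97 FPKM with Buffer, 2.58 with Saline and 4.59 with STZ, from 103, 138 and 237 reads. The folds were 1.88 and 1.56, with count ratios of 2.3 (1.82 to 2.92) and 1.71 (1.38 to 2.13). Plk2, a kinase of the polo-like family, had 394, 414 and 650 reads and folds of 1.57 and 1.5. Gadd45b, a growth arrest and damage gene under the minimum for naming that was named after its values were seen, had 28, 43 and 57 reads and folds of 1.57 and 1.22. In the same list of 39 further early response genes, Gadd45g had 1426, 1420 and 999 reads with folds of 0.703 and 0.704, and Zfp36l1, which destabilises messages, had 1534, 1754 and 1156 reads with folds of 0.761 and 0.667. The list's median log2 fold was -0.002 against Buffer and -0.106 against Saline.

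The other AP-1 genes, 6 in the table, had none past a threshold, which is near the shares of all genes given above. Fosl1 had 60, 98 and 78 reads and was highest in Saline, and Jdp2, an AP-1 repressor, had 122, 114 and 130. The median log2 fold of this list was 0.091 against Buffer and 0.217 against Saline. Nr4a2, the relative of Nr4a1, had 530, 575 and 660 reads with folds of 1.23 over Buffer and 1.13 over Saline, and Nr4a3 had 37, 36 and 36. Of the other Ier genes, Ier5l had 312, 327 and 224 reads with folds of 0.741 and 0.709. Among 11 further Dusp phosphatases, Dusp16, which acts on JNK and p38, passed the lower threshold against Buffer only, with 2990, 2483 and 1860 reads and folds of 0.62 and 0.707.

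The genes that act on the immediate early genes were also examined. None of 26 activators (kinases of the MAP kinase cascades, serum response factor and its partners, CREB and its relatives) passed, and their folds ran from 0.773 to 1.33 against Buffer and from 0.739 to 1.38 against Saline. Srf, serum response factor itself, had 1136, 1451 and 1231 reads and folds of 1.08 and 0.853. None of 7 ERK feedback inhibitors passed, and 5 of the 7 had folds below 1 against each control, as 4 of the 7 had for Saline against Buffer. Of all 18425 genes, 7662 had folds below 1 against Buffer, 8533 against Saline and 7828 for Saline against Buffer. Past the thresholds were 2.25% of all genes above and 1.04% below against Buffer, and 2.04% and 1.75% against Saline. None of 26 and none of 7 are near these shares. The median log2 fold of the 7 inhibitors was -0.301 and -0.270 against the controls and -0.003 between them. Spred1, one of them, had 1478, 1462 and 1292 reads. Of 9 partners of Atf3 in the stress response, Sesn2 passed against Buffer, with 451, 512 and 785 reads and folds of 1.66 and 1.48, and Atf4, the factor upstream of Atf3, had 285.07, 292.8 and 288.04 FPKM.

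**Figure D5:**
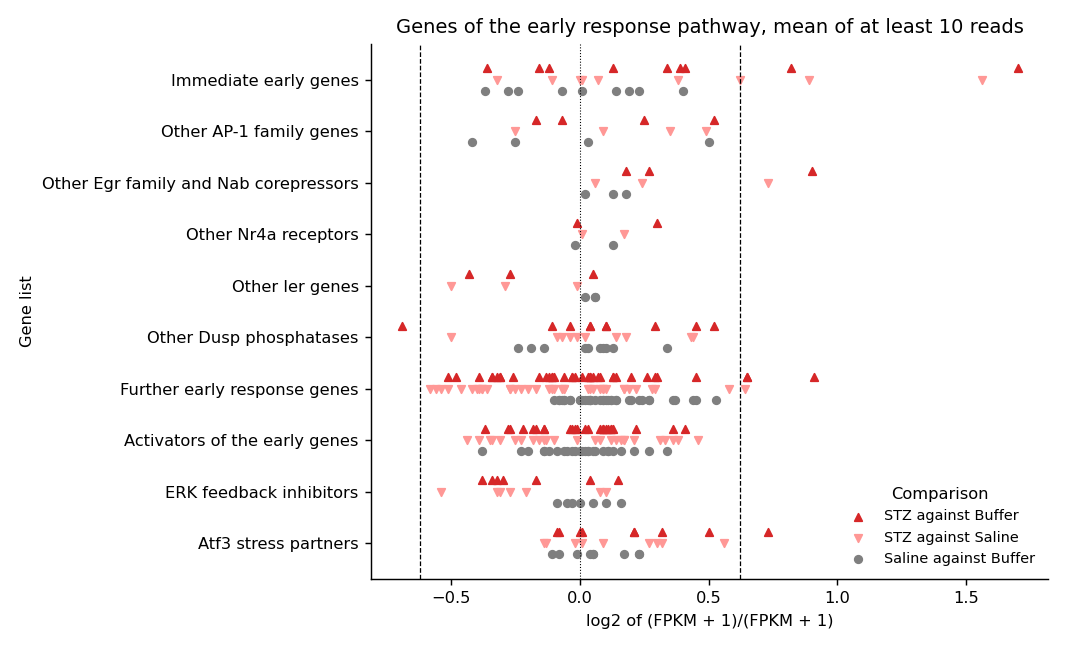
Log2 of the ratio of (FPKM + 1) for each gene with a mean of at least 10 reads, in rows for the immediate early genes and the 9 pathway lists, 1 symbol per gene and comparison of libraries, with the thresholds dashed. Most pathway genes lie between the thresholds. Nab2 and Sgk1 are the 2 pathway genes above the upper one against both controls, beside 1.39% of all genes.

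The 5 genes whose pattern lay nearest to that of Egr1, by the distance between their pairs of log2 folds (Saline and STZ, each against Buffer) among 12813 genes averaging at least 50 reads, were Anxa3 and Cdkn1a at 0.09, Tap1 at 0.13, Aif1 at 0.14 and Lcp1 at 0.15. Cdkn1a, a cyclin-dependent kinase inhibitor, had reads of 434 with Buffer, 449 with Saline and 1496 with STZ, and folds of 3.24 and 3.14. Anxa3, a phospholipid-binding protein, had 220, 253 and 773 reads. Aif1, a microglial marker of the lists below, had 86, 95 and 273. Tap1 had 30, 39 and 195 reads, and Lcp1 had 156, 164 and 592. Likeness rests on the 3 libraries alone.

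Markers of other cells moved between the same libraries. The retina was well represented, with all 14 retinal markers in the table and summed levels of 1636, 1598 and 1650 FPKM for Buffer, Saline and STZ, with Lhx2 past the lower threshold against both controls and Elavl4 past the upper one against Saline, at a fold of 1.63. Of 16 microglial markers, among them Aif1, 13 were higher for STZ against Buffer and 13 against Saline, 1 was higher in Saline than in Buffer, and the summed levels were 75.5, 97.7 and 240 FPKM with none at 0. Of 19 lens markers, 14 were higher for STZ against Buffer, 11 against Saline and 12 for Saline against Buffer, at 22.8, 63.6 and 377 FPKM, with Cryba2 and Crybb2 at 0 in Buffer. Egr1 and Fos were higher in the library with the highest microglial and lens sums, and the part of those cells in the result was not tested. Of 15 markers of pigment and ciliary epithelium, 8 were higher in Saline than in Buffer and 7 lower in STZ than in Saline, at 264, 417 and 230 FPKM, with Rpe65 at 0 in Buffer. Of these sums, Rlbp1 held 155.08, 145.77 and 121.83 FPKM and Aldh1a1 46.63, 167.7 and 46.53. The counting intervals of Junb and Ier2 also lay above 1 for Saline against Buffer, and the part of pigment and ciliary epithelium was not tested.

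The sums of endothelial, mural, astrocyte and blood markers were lowest in STZ. Endothelial markers, 10 in number, summed to 123, 133 and 85.4 FPKM with 3 lower against each control. Kdr alone held 105.92, 117.43 and 80.18 FPKM of these sums, and all 10 folds were below 1 against each control. The 8 mural markers summed to 16.8, 16.1 and 9.7 FPKM with 3 and 2 lower. The 6 astrocyte markers summed to 14.7, 16.4 and 7.59 FPKM with 3 and 4 lower, Aldh1l1 being at 0 in Buffer and STZ. The 10 blood markers summed to 178, 255 and 132 FPKM, with 3 higher and 1 lower against Buffer, 4 lower against Saline and 4 at 0 in a library. Dusp1 was also lowest in STZ, and the part of these cells in its value was not tested.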

How the data were processed

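Total RNA of rat retinas at P4 was sequenced by the authors from Illumina TruSeq libraries, 1 each for Buffer, Saline and STZ, grouped by their titles. Per the labels and the paper's methods, reads were checked with FastQC, trimmed and mapped with TopHat2 with up to 2 mismatches, and reads with several locations were discarded. The build was rn6 by the submitters' processing notes. The annotation and counter were not given in the sources used here. The authors deposited FPKM, computed with an R script of their own, for each gene and library. They also deposited TPM, used here as an alternative only. The deposited estimated counts summed to 21992702, 21977843 and 22031249 in Buffer, Saline and STZ, and 12.9%, 13.2% and 13.1% of the values were fractional. Genes with near-identical copies held fractional counts, such as Hba1 with 520.19 and Hba2 with 345.81 in Buffer. How reads shared by such copies were treated in the deposited counts was not given.

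Here the fold was (FPKM + 1)/(FPKM + 1), called above 1.54 or below 0.65. Counts were rounded to whole numbers for exact Clopper-Pearson 95% intervals of count ratios, which cover counting error only. A count of 3 or under was taken as at the floor. List medians used genes averaging 10 counts or more. Named genes were all 10 members, up to 6 genes of each pathway list with the largest log2 fold of STZ against Buffer and a mean of at least 50 counts, all past both controls, and the 5 nearest to the leading member. For marker lists counts and summed levels are given. Egr2, Egr3, Nr4a3, Gadd45b, Srf, Atf4, Elavl4, Kdr, Rlbp1, Aldh1a1, Hba1, Hba2 and markers at 0 were named outside this rule, after their values were seen. Members and lists were chosen with earlier results of these data known. The alternatives were a pseudocount of 0.1, TPM, CPM, edgeR 4.0.16 and DESeq2 1.42.0 scaling in R 4.3.3, the mean of both controls, thresholds of 2 and 0.5, the counting interval, and other count minimums. Without replicates no count model was fitted. Calculations used Python 3.11.15, numpy 2.4.6, pandas 2.3.3 and scipy 1.17.1, figures matplotlib 3.10.9, and were tested on simulated data. Promoters came from RefSeq, build GRCr8, and no coordinates were moved between builds.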

Additional observations from a re-analysis of the deposited data

How the results depend on the processing

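In STZ against Buffer, 2 immediate early genes were above the threshold. A pseudocount of 0.1 gave 4 (Egr1, Fos, Fosb and Atf3), thresholds of 2 and 0.5 gave 1, and the counting interval gave 4 higher and 2 lower in place of 0 lower. In STZ against Saline, 2 were above. CPM gave 4, adding Nr4a1 and Atf3, thresholds of 2 and 0.5 gave 1, and the counting interval gave 4 higher and 1 lower in place of 0 lower. TPM and a pseudocount of 0.1 each gave 3, adding Atf3. In Saline against Buffer, with 0 either way, a pseudocount of 0.1 gave 1 higher (Fosb) and 1 lower (Atf3), and the counting interval 2 higher and 2 lower. The cause was not tested. Of these alternatives, the share of all genes was computed for the counting interval only. The counts at the other settings thus have no background beside them. Median log2 folds ran from 0.24 to 0.50 for STZ against Buffer, from 0.04 to 0.08 for STZ against Saline and from -0.02 to 0.08 for Saline against Buffer. For STZ against the mean of both controls the median was 0.19. Of 160 folds of single genes recomputed, 154 stayed within the counting interval of the count ratio after it was carried to the scale of FPKM + 1, and 6 lay beyond it. Of all 160, 7 crossed 1, for Jun and Junb in STZ against Saline with TMM or DESeq2 scaling and for Nr4a1 in Saline against Buffer with these or CPM, and 0 of the 7 were folds past a threshold. The fold of Egr1 ran from 3.18 to 4.9 against Buffer and from 2.91 to 4.15 against Saline, and that of Fos from 1.72 to 2.0 and from 1.83 to 2.14. Against the mean of both controls the fold of Egr1 was 3.09. At these depths Fosb, with 2 to 7 reads, could not be compared. No paired analysis was possible because each condition has 1 library and no result comes from a test across samples. For the same reason no library could be left out.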

Other observations

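Summed over the families, the ratio of Jun-type to Fos-type RNA differed between the libraries. The 4 Fos-type genes (Fos, Fosb, Fosl1 and Fosl2) summed to 6.4 FPKM with Buffer, 6.83 with Saline and 9.81 with STZ. Of these sums, Fos held 2.81, 2.62 and 5.71 FPKM, and only Fos of the 4 was above both controls in STZ. Fosl1 had 1.91, 3.12 and 2.47 FPKM, and Fosl2 had 1.65, 0.98 and 1.52. The 3 Jun-type genes (Jun, Junb and Jund) summed to 118, 98.8 and 103 FPKM. There was thus 18.4 times as much Jun-type as Fos-type FPKM in Buffer, 14.5 times in Saline and 10.5 times in STZ. Jund alone made up 52.2% of the summed FPKM of the 10 immediate early genes with Buffer, 48.6% with Saline and 48% with STZ, so the sum of all 10, at 153, 140 and 149 FPKM, followed the abundant Jun-type genes and not Egr1 or Fos. These sums have no replicate check.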
